A study of Homo sapiens with 12 samples.

Results

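The promoters of 9 constitutive reference genes were examined for H3K4me3: ACTB, GAPDH, B2M, HPRT1, TBP, PPIA, TUBB, PGK1 and GUSB. They were taken by name from the 20136 protein-coding genes of GENCODE release 44 on GRCh37 (hg19), and all 9 were found there. H3K4me3 was profiled by CUT&RUN, where a nuclease tethered to an antibody cuts and releases the DNA around the bound mark, in BON1, a human pancreatic neuroendocrine tumor cell line. The control line was BON1/TGL/pQ and the other line, BON1/TGL/HA-Bcl-xL, overexpressed Bcl-xL, which protects cells from apoptosis, with an HA tag. Each condition used 500000 cells. A rabbit anti-mouse IgG reaction gave the background in each line. All cells were grown in medium with puromycin, and the labels do not say whether a line was 1 clone or whether replicates came from separate cultures. The labels give 12 samples, 3 for each antibody and line, and 11 peak lists were used. The list of the first H3K4me3 replicate of the HA-Bcl-xL line was not analysed here.

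H3K4me3 is a mark of the nucleosomes that flank active promoters, and it is laid down mainly over CpG-rich starts. Reference genes are widely used to scale expression assays because nearly every cell transcribes them, so their promoters are generally thought to carry the mark in any tissue. The 9 genes cover different basic functions. ACTB and TUBB encode the cytoskeletal proteins beta-actin and beta-tubulin, GAPDH and PGK1 are glycolytic enzymes, and HPRT1 salvages purines. B2M is the light chain of MHC class I molecules, TBP is the TATA-binding protein of the basal transcription machinery, PPIA is the prolyl isomerase cyclophilin A, and GUSB is the lysosomal enzyme beta-glucuronidase.

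The promoter sequences are shown because they set the members with the strongest peaks beside those with none. Each is the run of 100 bases just before the canonical start, which is the start of the transcript that GENCODE marks as the main one of the gene. They are written 5′ to 3′ on the gene's strand from GRCh37, with CG dinucleotides in capitals. The first pair belongs to the genes with the strongest H3K4me3 peaks and the last pair to genes with none. The B2M window lay under its strongest peak in every library. The PPIA window did not, since the strongest PPIA peak lay downstream of it, and only a weaker peak of HA-Bcl-xL replicate 3 overlapped it.
PPIA (chr7:44836180-44836279, plus strand): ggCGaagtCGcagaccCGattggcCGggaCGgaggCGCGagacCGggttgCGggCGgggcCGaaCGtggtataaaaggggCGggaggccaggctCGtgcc
B2M (chr15:45003615-45003714, plus strand): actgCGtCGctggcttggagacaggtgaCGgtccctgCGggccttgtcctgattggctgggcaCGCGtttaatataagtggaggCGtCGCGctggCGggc
HPRT1 (chrX:133594095-133594194, plus strand): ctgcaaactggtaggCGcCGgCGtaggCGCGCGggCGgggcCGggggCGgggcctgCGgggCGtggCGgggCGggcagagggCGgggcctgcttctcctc
TUBB (chr6:30688029-30688128, plus strand): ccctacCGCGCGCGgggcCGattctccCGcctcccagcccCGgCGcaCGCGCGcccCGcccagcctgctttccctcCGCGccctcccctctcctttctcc

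The CG count in these windows was 14 in PPIA, 10 in B2M, 14 in HPRT1 and 14 in TUBB. Over the 19855 protein-coding genes with a canonical start the median was 9, with 1 at the 10th and 16 at the 90th percentile. HPRT1 and TUBB, the genes without a peak, were above that median in this window. Within 1 kb of the canonical start, HPRT1 had 123 CG dinucleotides and TUBB had 82, with a median of 96 over all genes. The letters TATAA, searched on both strands, occurred in PPIA and B2M, and in 9.05% of all such windows. The letters CCAAT, searched likewise, occurred in PPIA and B2M, and in 20.7% of all windows. The letters GGGCGG occurred in PPIA, HPRT1 and TUBB, and in 45.6% of all windows. These are matches of letters in a window and were not read as binding sites.

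Depth was limited. The lists held 10247 to 17711 peaks in the H3K4me3 libraries and 244 to 2113 in the IgG libraries, on chromosomes 1 to 22, X and Y. The median H3K4me3 peak rested on 9 to 11 fragments at its summit, a number solved from the authors' fold and p-value of each peak. Absence of a peak therefore means only that none was called at this depth. Of 10 neuroendocrine marker genes, 4 had a peak within 1 kb of a transcript start in all 5 H3K4me3 libraries. These were CHGB, NEUROD1, SCG2 and SCG3. CHGA and ENO2 had one in 1 library, SYP and TPH1 in 2, and INSM1 and SCG5 in none. Over all protein-coding genes the shares were 26.5% in all 5 and 43.4% in none. Of 17 markers of erythroid, other blood, liver, muscle and keratinocyte lineages, 0 had a peak in any H3K4me3 library.

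ACTB, B2M, TBP, PPIA and PGK1, 5 of the 9 reference genes, carried H3K4me3 peaks in all 5 libraries, counting any peak with at least 1 bp within 1 kb of some annotated transcript start. The share over all protein-coding genes was 26.5%. At the canonical start alone it held for 4 members (ACTB, B2M, TBP and PPIA) and 23.2% of genes, and at the most 5′ annotated end for 3 members (B2M, TBP and PPIA) and 21.3%. GAPDH and GUSB had such a peak in 3 of 5 libraries each. HPRT1 and TUBB had none in any library, as did 43.4% of all genes. These counts depend on the peak threshold. At a -log10 q of at least 5, TBP and PGK1 lost their call in control replicate 3, where their best values were 4.81 and 2.15. The mean number of members called near any start was then 4.67 in control and 5 in HA-Bcl-xL libraries, from 6.33 and 6. The share of all genes at that threshold was not computed. The median member had a peak in 5 libraries and the median protein-coding gene in 1, counting any start. The members' median was 3 at the canonical start, where that of all genes was 1, and 3 at the most 5′ end, where that of all genes was 0. It was also 3 when only peaks nearest to a member's own start were counted. Under that rule only ACTB, B2M and PPIA had a call in all 5 libraries, and the value for all genes was not computed. No member had an IgG peak within 2.5 kb of any transcript start in any of the 6 IgG libraries. Over all genes, 3.88% had such a peak in at least 1 IgG library, 3.59% in at least 1 control IgG library and 0.328% in at least 1 HA-Bcl-xL IgG library. The map of peaks at the 9 genes shows that the calls sat at quite different places relative to the main start.

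**Figure D1:**
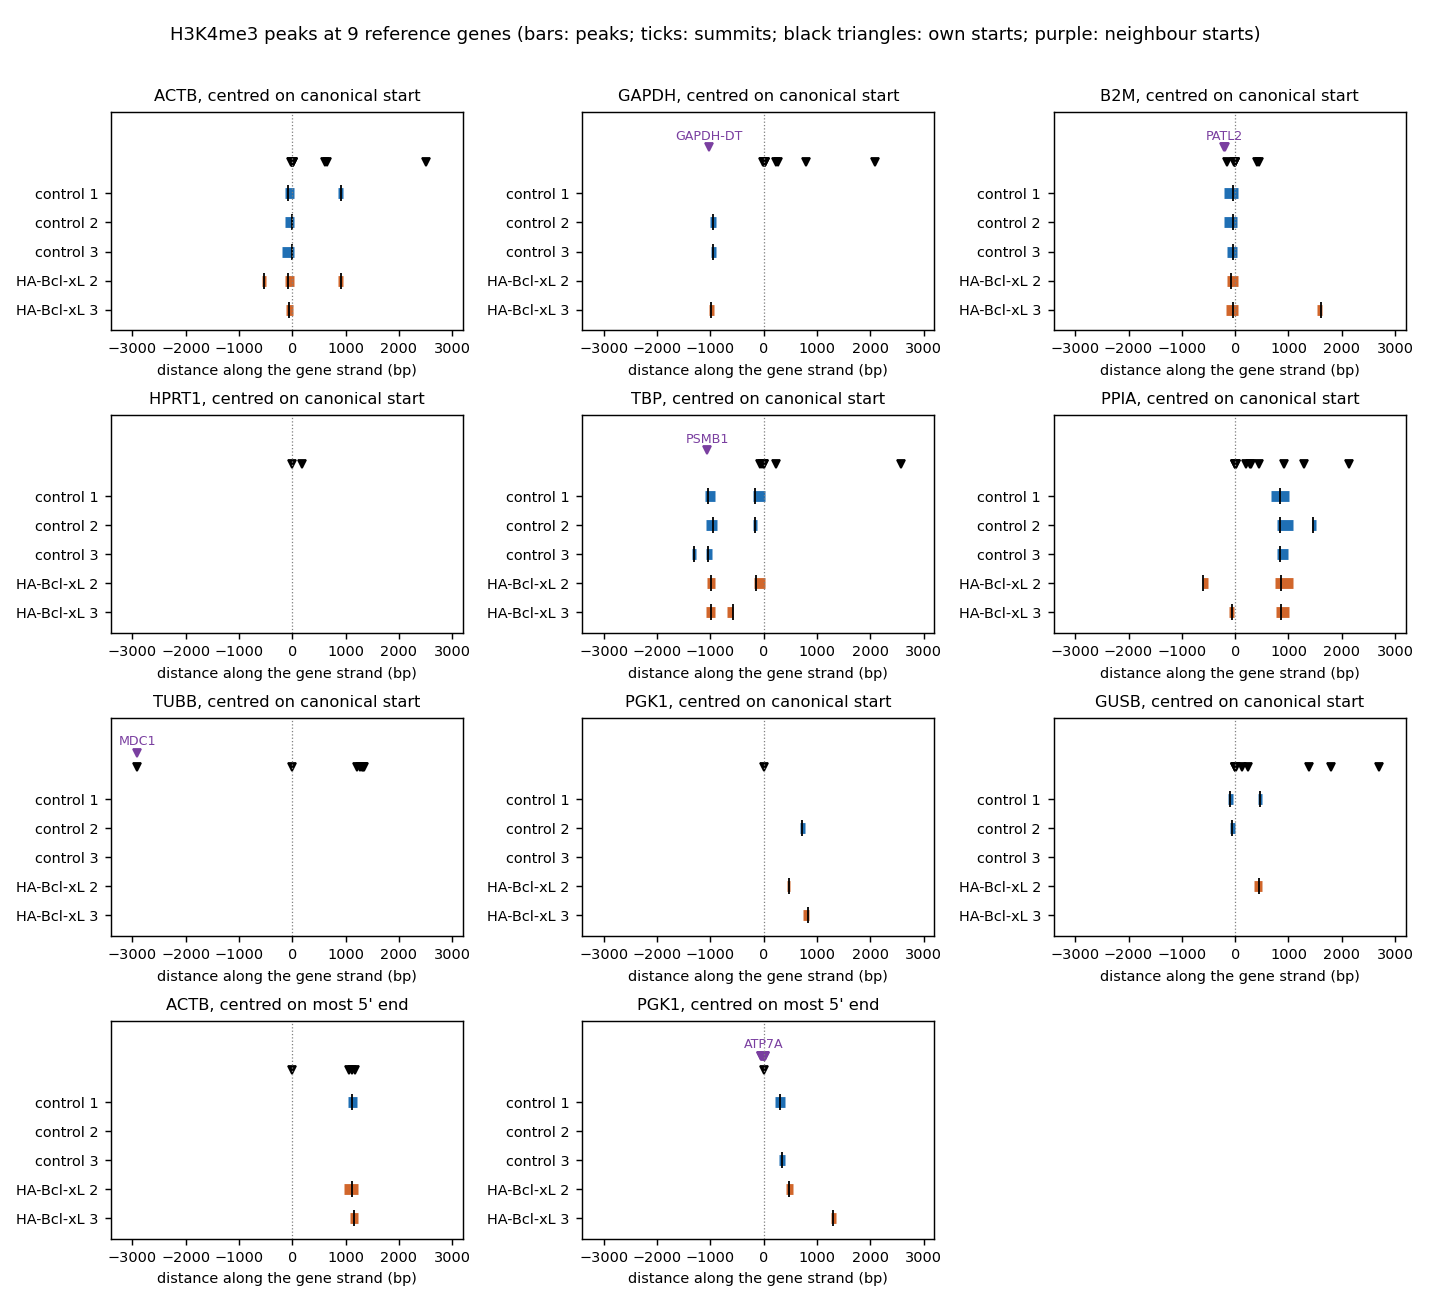
Positions of H3K4me3 peaks (bars, with summits as ticks) at the 9 reference genes in each library, with control in blue and HA-Bcl-xL in orange, against distance in bp from the canonical start along the gene's strand; the last panels centre ACTB and PGK1 on their most 5′ annotated end. Black triangles are the gene's own transcript starts and purple ones those of the named neighbours. B2M and ACTB peaks cover the canonical start, the main PPIA peak lies 832 to 866 bp downstream, and HPRT1 and TUBB have none.

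PPIA had the highest-ranking peak of the members in 4 of 5 libraries, and B2M ranked above it in control replicate 1. Its gene is annotated at chromosome 7, 44836279 to 44864163, on the plus strand. Ranked by the authors' -log10 p within each list, the strongest peak stood at percentile 98.9, 98.4 and 99.2 in the control libraries. It stood at 99.3 and 99.1 in the HA-Bcl-xL libraries, here and below always in the order of the replicate number. Every library thus had PPIA in the top few percent of its own list. The summit held 42, 33 and 33 fragments in control and 42 and 37 in HA-Bcl-xL libraries. The peaks spanned 44836948 to 44837286 in control replicate 1 and 44837022 to 44837371 in HA-Bcl-xL replicate 2. Summits lay 832 to 839 bp downstream of the canonical start in control and 863 and 866 bp downstream in HA-Bcl-xL libraries. The nearest annotated start was that of a shorter PPIA transcript, 53 to 87 bp beyond the summit. At the canonical start itself, peaks near the PPIA promoter were weaker and were seen in HA-Bcl-xL libraries alone. Replicate 3 had one at 44836158 to 44836251, 29 bp from the start, with 13 fragments, and replicate 2 had one at 44835673 to 44835763, 517 bp from it, with 15 fragments. Control replicate 2 had a further peak 1434 bp downstream. Whether peaks at the start differ between the lines was not tested.

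B2M also ranked near the top. The gene lies on chromosome 15, 45003556 to 45011049, on the plus strand. Its strongest peak stood at percentile 99.3, 96.9 and 92.9 among control peaks and at 98.4 and 92.1 among HA-Bcl-xL peaks. B2M was thus above percentile 92 of every list. The summit held 45, 26 and 20 fragments in control and 34 and 24 in HA-Bcl-xL libraries. The peaks covered the canonical start in all 5 libraries, for example 45003515 to 45003763 in control replicate 1. Summits lay 38, 47 and 46 bp upstream of that start in control and 83 and 37 bp upstream in HA-Bcl-xL libraries. The nearest start of PATL2, which is transcribed in the opposite direction, lies 194 bp upstream of the B2M canonical start, and 35 bp from its most 5′ end, so the mark at these promoters cannot be told apart where peaks span both. A second B2M peak, 1542 bp downstream of the canonical start, was called in HA-Bcl-xL replicate 3 alone, with 12 fragments.

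ACTB depended on which start was taken. The gene spans chromosome 7, 5566040 to 5603533, on the minus strand, and its most 5′ annotated end lies 33301 bp from the canonical start at 5570232. Every library had a peak at the canonical start. It spanned 5570203 to 5570372, 5570190 to 5570371 and 5570190 to 5570418 in the control libraries, and 5570195 to 5570366 and 5570225 to 5570357 in the HA-Bcl-xL libraries. These peaks held 14, 9 and 9 fragments in control and 8 and 12 in HA-Bcl-xL libraries, and stood at percentiles from 19.0 in HA-Bcl-xL replicate 2 to 71.0 in control replicate 1. Smaller peaks 866 bp downstream were called in control replicate 1 and HA-Bcl-xL replicate 2, and the latter had another 484 bp upstream. A separate peak, at starts of longer ACTB transcripts near the far end, was called in control replicate 1 and both HA-Bcl-xL libraries, with 15, 14 and 10 fragments. It ranked at percentiles 80.4, 79.1 and 58.8, and in control replicate 1 and HA-Bcl-xL replicate 2 it was the stronger of the ACTB peaks. Control replicates 2 and 3 had no peak there. Its edge lay 968 bp from the most 5′ end in HA-Bcl-xL replicate 2, just inside the 1 kb window. It lay 1043 bp away in control replicate 1 and 1084 bp away in HA-Bcl-xL replicate 3, just outside. A call within 1 kb of the most 5′ end was thus made for ACTB in 1 of 5 libraries, against 5 of 5 at the canonical start.

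TBP had a peak within 1 kb in all 5 libraries, but its stronger peak belonged by position to a neighbour. TBP lies on chromosome 6, 170863390 to 170881958, on the plus strand, and PSMB1, a proteasome subunit gene read in the opposite direction, starts 1062 bp upstream of the TBP canonical start. The peak nearest to PSMB1 had its summit at -1046 to -948 bp from the TBP canonical start, with 21, 18 and 11 fragments in control and 21 and 22 in HA-Bcl-xL libraries. A peak whose summit was nearest to TBP's own start was called in control replicates 1 and 2 and HA-Bcl-xL replicate 2, with 15, 14 and 13 fragments. Its summits lay 86 to 97 bp upstream of the most 5′ end of TBP. Control replicate 3 and HA-Bcl-xL replicate 3 had none, so 3 of the 5 libraries had a TBP call at its own start. HA-Bcl-xL replicate 3 had a further peak between them, 506 bp from the most 5′ end. Control replicate 3 had a second peak nearest to PSMB1, with 11 fragments and its summit at -1310 bp from the TBP canonical start.

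For the glycolytic genes, too, part of the calls lay nearest to a neighbour's start. For PGK1, on chromosome X at 77166236 to 77384792 and on the plus strand, the most 5′ end is also a start of ATP7A, a copper transporter gene, and lies 193509 bp from the PGK1 canonical start. Within 2.5 kb of it, peaks were called in control replicates 1 and 3 and both HA-Bcl-xL libraries, with 9, 4, 5 and 8 fragments, and the nearest start to each summit was one of ATP7A. The PGK1 start was almost as near, for example 306 bp against 287 bp in control replicate 1. The mark at these starts therefore cannot be told apart. Near the canonical start at 77359745, peaks were called in control replicate 2 and both HA-Bcl-xL libraries, with 6, 7 and 5 fragments. Their summits lay 726, 472 and 834 bp downstream. That call thus came from both HA-Bcl-xL libraries and 1 control library, on few fragments, and the difference was not tested. The PGK1 peak of control replicate 3 at the ATP7A start ranked at percentile 0.849 of its list, the weakest among the strongest peaks of the members.

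GAPDH, on chromosome 12 at 6643678 to 6647540 on the plus strand, had no peak over its own start in any library. In control replicates 2 and 3 and HA-Bcl-xL replicate 3 a peak of 9 fragments each was called at 6642674 to 6642781, 6642700 to 6642781 and 6642664 to 6642751. The edge of these peaks lay 897, 897 and 927 bp from the most 5′ end, just inside the 1 kb window. Their summits were 62, 67 and 36 bp from the start of GAPDH-DT, a long noncoding RNA gene transcribed divergently from GAPDH. In control replicate 1 and HA-Bcl-xL replicate 2, the nearest H3K4me3 summit to the GAPDH canonical start was 19.7 kb downstream. GAPDH peaks ranked at percentiles 28.3, 42.1 and 19.5 of their lists, below the middle in each case.

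GUSB, on chromosome 7 at 65425671 to 65447202 on the minus strand, had peaks on both sides of its start, though not in every library. Control replicate 1 had a peak 32 bp upstream of the canonical start and another 432 bp downstream, with 7 fragments each. Control replicate 2 had the upstream peak alone, 9 bp from the start, with 6 fragments. HA-Bcl-xL replicate 2 had the downstream peak alone, at 65446692 to 65446849, with 10 fragments and percentile 74.2. Control replicate 3 and HA-Bcl-xL replicate 3 had neither, and their nearest summits were 93.5 kb away.

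**Figure D2:**
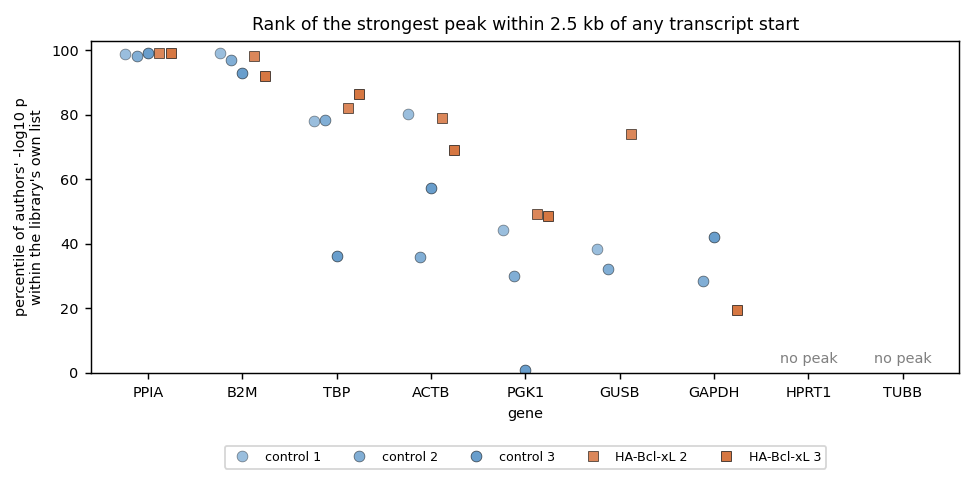
Percentile of the authors' -log10 p, within each library's own list, of the strongest peak within 2.5 kb of any transcript start of each gene (100 is the strongest peak of a list; circles control, squares HA-Bcl-xL). PPIA and B2M lie above percentile 92 in all 5 libraries, GAPDH between 19.5 and 42.1, and HPRT1 and TUBB have no value; ranks from lists of different length are not compared.

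HPRT1 had no peak near any of its 3 starts. It lies on chromosome X at 133594195 to 133654543, on the plus strand. The nearest H3K4me3 summit was 347, 85.9 and 88.4 kb from its canonical start in the control libraries. In the HA-Bcl-xL libraries it was 85.8 and 347 kb away. The only other protein-coding gene with a most 5′ end within 200 kb was PHF6, 86.9 kb away, which had a peak in 2 of 5 libraries. The stretch within 1 kb of the HPRT1 start was 57.5% GC, where the median over all genes was 56.0%.

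TUBB, on chromosome 6 at 30685212 to 30693315 on the plus strand, lies in the region of the HLA genes. Its nearest H3K4me3 summit was 72.5, 163 and 72.6 kb from the canonical start in the control libraries and 72.5 and 72.6 kb away in the HA-Bcl-xL libraries. Among protein-coding genes with a most 5′ end within 200 kb, C6orf136 had a peak in 4 libraries, GNL1 and PRR3 in 1 each, and the rest in none. Calls were rare across this whole region. Of the 138 protein-coding genes from HLA-F to HLA-DPB1, 1 gene (0.725%) had a peak within 1 kb of a start in all 5 libraries, and it was HLA-B. On the rest of chromosome 6 this held for 215 of 910 genes (23.6%). At least 1 library had a peak for 26.8% of genes in the region and for 58.5% on the rest of the chromosome. Per library the share was 14.5, 7.25 and 10.1% in control and 11.6 and 9.42% in HA-Bcl-xL libraries within the region. On the rest of chromosome 6 it was 50.3, 37.7 and 34.0% in control and 45.2 and 42.97% in HA-Bcl-xL libraries, so each library had a lower share inside the region. The lists also name 7 alternative haplotype contigs of chromosome 6, which repeat the HLA region. On these contigs 135, 75 and 77 peaks were called in control and 127 and 89 in HA-Bcl-xL libraries. Between HLA-F and HLA-DPB1 on chromosome 6 itself the lists held 23, 12 and 16 peaks in control and 20 and 13 in HA-Bcl-xL libraries. The sequences of these contigs were not used here, and the part that reads placed on them play in the TUBB result was not tested.

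**Figure D3:**
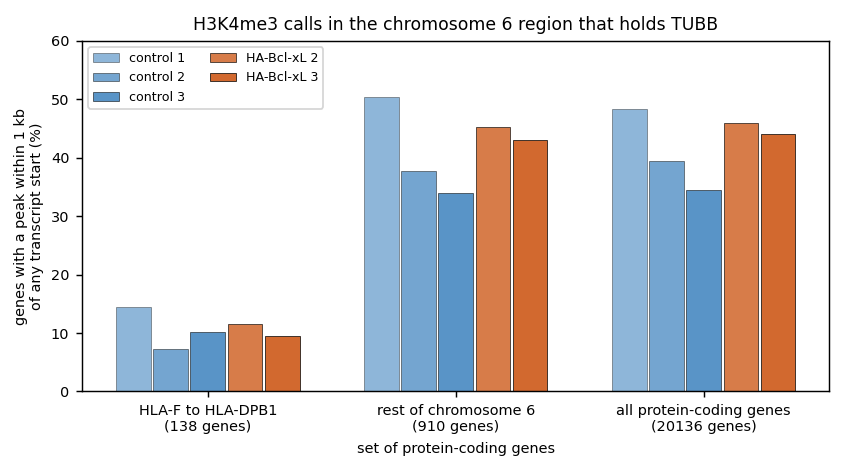
Share of protein-coding genes (%) with an H3K4me3 peak within 1 kb of any transcript start, per library (bars; control in blue, HA-Bcl-xL in orange), for the 138 genes from HLA-F to HLA-DPB1 that include TUBB, the 910 other genes of chromosome 6, and all 20136 genes. In the region every library lies between 7.25 and 14.5%, below its share on the rest of the chromosome.

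The annotation names 198 pseudogenes after the members, with 89 for PPIA, 65 for GAPDH, 18 for GUSB and 12 for ACTB, and their sequence identity to the members was not measured. Of these, 3 had an H3K4me3 peak within 1 kb of their start in any library, 2 named after GUSB and 1 after TUBB, and 0 had one in all 5. The TUBB pseudogene also had a protein-coding start within 2 kb. No peak was called at the starts of the pseudogenes named after PPIA, GAPDH, ACTB, HPRT1 and PGK1. The share over all annotated pseudogenes was not computed.

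Promoter GC content ranged widely among called and uncalled members. GC within 1 kb of the canonical start was 70.9% for ACTB and 66.7% for GAPDH, both in the highest GC decile. In that decile 26.5% of genes were called in an average library and 9.06% in all 5, and ACTB was among the latter. B2M (52.4%) was in the decile with the most calls, where the average library called 51.5%. TBP had the lowest GC of the members (48.2%), in a decile where the average library called 31.8% and 22.0% were called in all 5; its call in all 5 libraries rested on peaks nearest to PSMB1 in control replicate 3 and HA-Bcl-xL replicate 3. PPIA had 62.3%, in a decile with 42.3% in an average library and 22.0% in all 5. PGK1 (55.2%) and GUSB (58.9%), each called in 3 libraries at the canonical start, lay in deciles with 48.9 and 45.5% in an average library. TUBB (50.03%) and HPRT1 (57.5%) lay in deciles where the average library called 47.3 and 48.6% of genes.

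**Figure D4:**
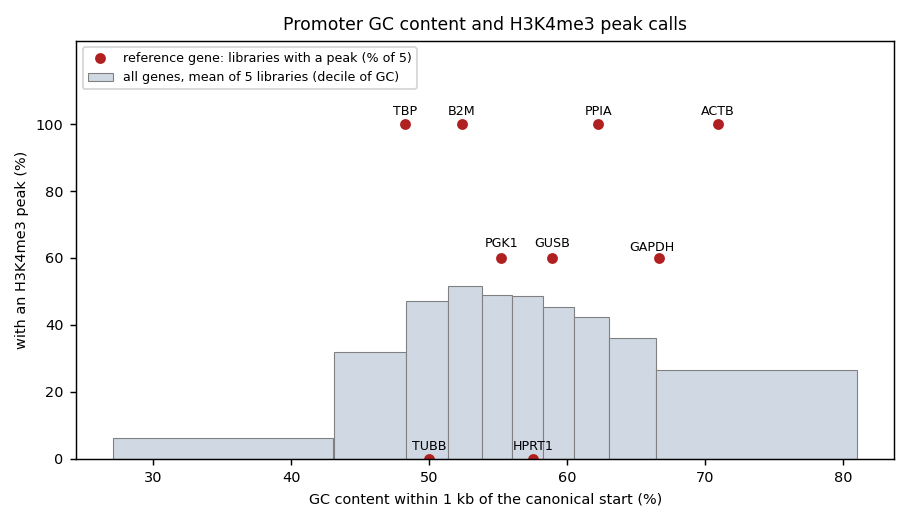
Percent with an H3K4me3 peak within 1 kb of the canonical start against GC content (%) of the same stretch. Grey bars give the mean over 5 libraries for deciles of all genes by GC, and red points give the percent of 5 libraries with a peak for each reference gene; TUBB and HPRT1 sit at 0 while ACTB, at 70.9% GC, sits at 100.

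Control and HA-Bcl-xL cells were then compared over the 9 genes. Within 1 kb of the most 5′ end, control libraries had 5, 5 and 5 members with a peak and HA-Bcl-xL libraries 6 and 4, means of 5 ± 0 (SD, n = 3) and 5 ± 1.41 (SD, n = 2). Over all genes, HA-Bcl-xL libraries called 37.3 ± 1.16% (SD, n = 2) and control libraries 33.6 ± 6.19% (SD, n = 3). Within 2.5 kb of the most 5′ end the members numbered 6, 5 and 5 in control and 6 and 6 in HA-Bcl-xL libraries, against mean shares of all genes of 38.9 and 42.6%. Within 1 kb of any transcript start they numbered 6, 7 and 6 in control and 6 and 6 in HA-Bcl-xL libraries, against 40.7 and 44.9% of all genes. Within 2.5 kb of any start the members' numbers were the same, against 43.1 and 47.4%. At the canonical start within 1 kb they were 5, 7 and 5 in control and 6 and 6 in HA-Bcl-xL libraries, against 36.8 and 40.9%. The mean share of all genes was thus higher in HA-Bcl-xL libraries in each of these windows, but control replicate 1 had the highest share of any library in each, for example 48.4% against 45.8 and 43.97% in the HA-Bcl-xL libraries within 1 kb of any start. The difference between the lines was not tested. Between the lines the means differed by at most 0.67 genes in these windows, and the sign of the difference changed with the window. Counting only peaks whose nearest start of any gene was the member's own gave means of 4.67 in control and 5 in HA-Bcl-xL libraries, and GAPDH then had no call. The share of all genes under this rule was not computed, so these means have no background beside them. With 10 ways to assign 3 and 2 libraries, an exact permutation test cannot give a p below 0.1, and none was run.

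**Figure D5:**
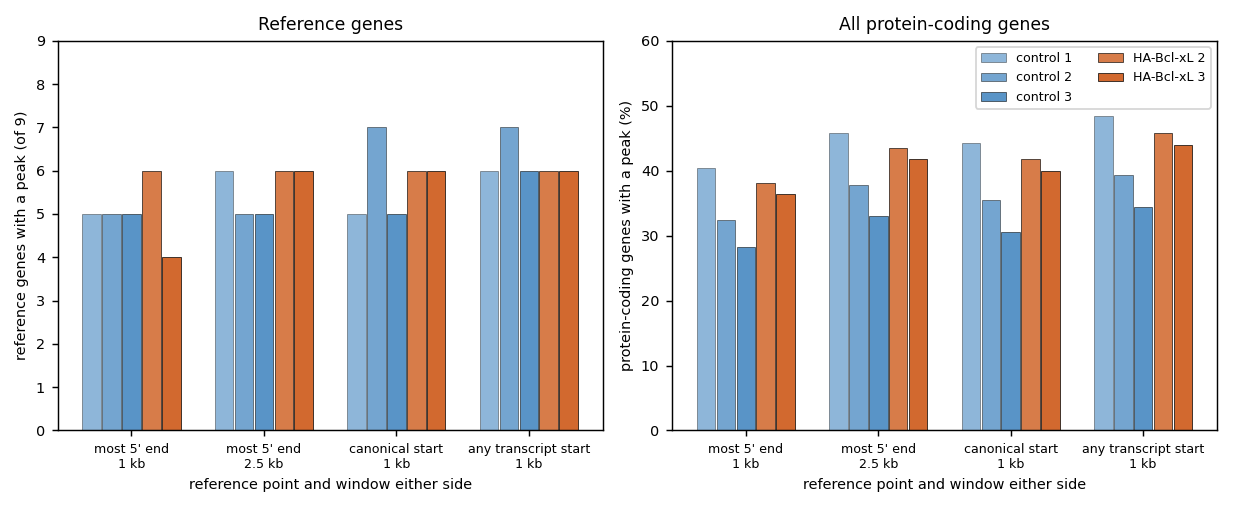
Number of the 9 reference genes (left) and percent of all protein-coding genes (right) with an H3K4me3 peak in each library, for 4 choices of reference point and window. The reference genes number 4 to 7 per library in every choice, while the share of all genes ranges from 28.2 to 48.4%.

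No member was called in every library of a line and in none of the other. Within 1 kb of any transcript start, 0.899% of all genes were called in both HA-Bcl-xL and no control libraries, and 0.238% in all control and no HA-Bcl-xL libraries. The pattern of ACTB, B2M, TBP, PPIA and PGK1, a call in all 5 libraries, was shared by 5327 other genes. The GUSB pattern (control replicates 1 and 2 and HA-Bcl-xL replicate 2) was shared by 272 others. The GAPDH pattern (control replicates 2 and 3 and HA-Bcl-xL replicate 3) was shared by 15 others.

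The length under peaks within 2.5 kb of any start was compared for the 5 members called in all libraries, in a limma fit over the 5781 genes called in all 5 libraries, on the log2 scale with each library centred on its median. PPIA had 339, 369 and 204 bases under peaks in the control libraries and 441 and 341 in the HA-Bcl-xL libraries, and the lines overlapped. The centred log2 difference, HA-Bcl-xL minus control, was 0.29 (SE 0.42). B2M had 249, 236 and 180 bases in control and 211 and 312 in HA-Bcl-xL libraries, a difference of 0.12 (SE 0.42). ACTB had 431, 182 and 229 bases in control and 602 and 278 in HA-Bcl-xL libraries, a difference of 0.54 (SE 0.45). This included the far start, and within 2.5 kb of the canonical start alone the ACTB difference was -0.15. TBP had 415, 294 and 196 bases in control and 374 and 291 in HA-Bcl-xL libraries, a difference of 0.09 (SE 0.41) that includes the PSMB1 side. PGK1 had 202, 99 and 115 bases in control and 206 and 203 in HA-Bcl-xL libraries. These groups were apart by the gap between 202 and 203 bases, the centred difference was 0.52 (SE 0.41), and 4 of the 5 PGK1 values include bases at the ATP7A start. With every list cut to the length of the shortest, the difference turned to -0.63 for PGK1, to -0.83 for TBP and to -0.023 for B2M, and was 0.019 for ACTB. Within 1 kb of any transcript start it was 0.0076 for PGK1.

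None of the 5 differences passed the threshold, with a Benjamini-Hochberg adjusted p of 0.997 for each by limma. The 95% intervals ran from -0.41 to 1.49 for ACTB, -0.78 to 1.01 for B2M, -0.77 to 0.95 for TBP, -0.59 to 1.17 for PPIA and -0.35 to 1.40 for PGK1, so a difference of 1 on the log2 scale lay inside each interval but that of TBP. Over all 5781 genes, 0 (0%) passed an adjusted p of 0.05 by limma and 276 had an unadjusted p under 0.05. Without HA-Bcl-xL replicate 3, 3 genes passed, none of them a member. In simulated widths of this design over 5781 genes, 0.5% of genes with a log2 change of 1 and 96.5% of those with a change of 2 were recovered. False calls numbered 0 and 4. The simulation gave every gene the same spread, the median of these data, so recovery at the genes' own spreads was not measured.

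Other genes of like function were read against the shares over all protein-coding genes, 26.5% called in all 5 libraries and 43.4% in none. Of 20 further reference genes, 10 had a peak within 1 kb of a start in all 5 libraries and 0 had none in any, with a median of 4.5 libraries, where the median over all genes was 1. SDHA and POLR2A had one in 5 libraries, and EEF1A1 and RPS18 in 1. Of 11 genes listed for even RNA levels across tissues, 5 were called in all libraries, among them VCP and PSMB4, and CHMP2A in none, with a median of 4 libraries. Of 14 other glycolysis genes, 5 were called in all libraries, including ENO1 and ALDOA, and TPI1 and LDHB in none, with a median of 3.5 libraries. GPI, a glycolytic isomerase on both of these lists, was called in each HA-Bcl-xL library but in 0 control libraries, as was TPH1 of the neuroendocrine list; these were named after their values were seen, and 0.899% of all genes had this pattern. Of 16 other actin and tubulin genes, 4 were called in all libraries (ACTA2, TUBA1A, TUBA1C and TUBB2B), near the share over all genes. Another 4 were called in none (ACTA1, ACTC1, ACTG2 and TUBB4A), and the median of the list was 3.5 libraries. The opposite pattern, found in 0.238% of all genes, was found in 0 genes of these lists. These counts are for any transcript start. At the canonical start and the most 5′ end, 4 and 6 of the further reference genes had no call (medians of 4 and 3.5 libraries), as had 4 and 7 of the glycolysis genes (2 and 0.5 libraries). The even RNA list had 1 and 3 without a call (medians of 3 and 3), and the actin and tubulin list 6 and 7 (2.5 and 2). Over all genes the medians there were 1 and 0. The share of all genes with no call at these reference points was not computed, and the 43.4% holds for any start only.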

How the data were processed

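Per the labels, CUT&RUN libraries were made with a ThruPLEX kit. The submitters' processing notes name bcl2fastq 2.20, Trimmomatic 0.36, Bowtie2 2.2.9, MACS2 2.1.1, deepTools 3.5.1 and hg19, without their order; a control for peak calling is not given in the sources used here. The deposited lists hold peaks per library, and give the authors' score, fold (ratio over background), -log10 p-value and -log10 q-value of every peak. They were used only to rank or filter peaks within their list, and to solve the fragment number at the summit, taking fold as (n + 1)/(background + 1) and p as a Poisson tail. In each list, up to 2000 peaks were checked, and 95.9 to 100% of them had a whole-number solution (tolerance 0.001 on the -log10 scale).

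Only peaks on chromosomes 1 to 22, X or Y entered the comparisons, and 0 of them ended beyond the GRCh37 reference. A gene was called with at least 1 bp of a peak in the window. Coordinates are 1-based. Members and gene lists were chosen with earlier results of these data known; the canonical start, the peaks nearest to a member's own start and the HLA region were examined after seeing the data. All 9 members are named, and other genes with a member's pattern would be named only where 5 or fewer share it. Replicates were grouped by the labels, which do not say that cultures were separate, so p-values measure the spread between these libraries. Widths were fitted with limma 3.58.1 (R 4.3.3), checked on simulated data. Overlaps, sequences and figures were made in Python 3.11.15 (pysam 0.24.0, pandas 2.3.3, matplotlib 3.10.9). Alternatives changed the peak threshold, list length, window, reference point, overlap rule, centring, filter or replicate block, or left out a library. Fragment numbers cover counting error only. Promoter sequences are reported for 4 members, and those of the others are not reported here.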

Additional observations from a re-analysis of the deposited data

Results flagged for a closer look

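On the chromosome 6 haplotype contigs, which the comparisons of promoters do not use, every H3K4me3 library had at least 75 peaks and every IgG library at most 1. These contigs repeat the HLA region in which TUBB lies, and peaks on them were not assigned to genes.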

How the results depend on the processing

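The difference in the number of members called, HA-Bcl-xL minus control, stayed within 1 SD of the reported value under 14 of 22 other settings, moved under 2 and reversed under 6. Within 1 kb of any transcript start it was -0.33, and it reversed to 0.33 at a -log10 q of at least 5, with the canonical start alone, and with only peaks nearest to a member's own start; equal list lengths gave -1.0. Within 2.5 kb of any start (-0.33) the first of these gave 0.83 and the other two 0.33. Within 2.5 kb of the most 5′ end, equal list lengths moved 0.67 to 0.0. With 1 library left out, the difference ran from -1.0 (without HA-Bcl-xL replicate 2) to 1.0 (without replicate 3) within 1 kb of the most 5′ end, from 0.5 to 1.0 within 2.5 kb of it, and from -0.5 to 0.0 within either window of any start. Members with an IgG peak stayed at 0 under all settings run. The count of genes with a width difference was 0 under 8 of 8 other settings and ran from 0 to 3 with 1 library left out; 147 to 604 genes had an unadjusted p under 0.05. Where an HA-Bcl-xL library was left out, the lone library was assumed to vary like the controls. The members' widths reversed for ACTB (-0.072) and B2M (-0.11) at the stricter q, for B2M (-0.023), TBP (-0.83) and PGK1 (-0.63) with equal list lengths, for B2M (-0.13) within 1 kb, for TBP (-0.017) with genes called in any library and a pseudocount of 50 bases, and for ACTB (-0.15) at the canonical start. Leaving out a library gave 0.028 to 1.03 for ACTB, -0.22 to 0.45 for B2M, -0.043 to 0.21 for TBP, 0.15 to 0.48 for PPIA and 0.34 to 0.61 for PGK1; the values below 0 were -0.027 and -0.22 for B2M, without control replicate 1 and HA-Bcl-xL replicate 3, and -0.0042 and -0.043 for TBP, without control replicate 3 and HA-Bcl-xL replicate 2. With the replicate number as a block, 0 genes passed and B2M went to -0.022. The deviations of same-numbered libraries from the mean of their line had correlations of 0.0054 and 0.031. With 2 HA-Bcl-xL libraries these deviations mirror each other, and control replicate 1 with HA-Bcl-xL replicate 2 gave 0.028. These values therefore cannot tell whether same-numbered libraries share more than a number. Measured from the most 5′ end, the median summit distance became 113 bp for B2M (from -16), 840 bp for PPIA (from -80), 33232 bp for ACTB (from 1), 1303 bp for PGK1 (from 472) and 458 bp for GUSB (from 214). By the peak nearest to a start it became -49 bp for GUSB and -97 bp for TBP (from -926). The cause of these changes was not tested. The canonical start and the own-start rule were added after seeing the data. Members that lost their call in a library under an alternative gave no width there.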
